A study of Homo sapiens with 4 samples.

Results

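The 35 genes described here encode the machinery that brings proteins into mitochondria and folds, cleaves or degrades them there. They were taken by name from 20037 protein-coding genes. The histone mark H3K14ac (acetylated lysine 14 of histone H3) was mapped by chromatin immunoprecipitation and sequencing (ChIP-seq) in MKN45, an established human gastric cancer cell line. Cells carried either a control hairpin (shNT) or a hairpin against NIT2 (shNIT2), an omega-amidase of glutamine metabolism, and each condition gave 1 H3K14ac library and 1 input library. The series title ties NIT2 to oxidative phosphorylation and fluorouracil resistance, and the comparison asks where the mark lies with and without the knockdown. The sources used here give neither the hairpin sequences, nor whether the cells were a single clone, nor the degree of knockdown. In a bulk culture, a mark in more cells and more of the mark per cell cannot be told apart.

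Most mitochondrial proteins are made in the cytosol and threaded through the TOM complex of the outer membrane. From there SAM inserts barrel proteins into the outer membrane, small TIM chaperones carry hydrophobic proteins across the intermembrane space, and the TIM22 and TIM23 complexes serve the inner membrane. In the matrix, an Hsp70 motor pulls the chain in, a peptidase removes the targeting signal, and chaperones and proteases fold or remove the protein. Active genes usually carry histone acetylation on the nucleosomes on both sides of their start. The members were divided into 11 outer membrane, 5 intermembrane space, 9 inner membrane and 10 matrix genes. TOMM34, largely a cytosolic co-chaperone, was kept with the outer membrane genes.

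The promoter stretches below belong to genes on which the results turn. The first 5 are the stretches whose starts lay between a pair of knockdown regions. Among the members' regions without another gene's start within 1 kb, that of TOMM20 had the highest fold, though not the highest −log10 q. TOMM70 and TIMM50 had no region in either list. Each runs from 5′ to 3′ on the gene's strand and ends 1 base before the start, and it is cut where another gene begins. The sequences are RefSeq's (GRCh38.p14). Capitals mark any of 9 short motifs searched on both strands: the NRF1 motif, CCGGAAG (ETS), AANATGGC (YY1), GGGCGG (SP/KLF), TGACGTCA (CRE), CCAAT (the CCAAT box), TATAAA (the TATA box), CACGTG (the E box) and GAANNTTC (heat shock element).
HSPE1, whole stretch to the HSPD1 start (chr2:197500275-197500378, plus strand): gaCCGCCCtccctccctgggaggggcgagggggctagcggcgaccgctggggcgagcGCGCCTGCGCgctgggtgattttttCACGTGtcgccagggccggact
TOMM7 (chr7:22822850-22822999, minus strand): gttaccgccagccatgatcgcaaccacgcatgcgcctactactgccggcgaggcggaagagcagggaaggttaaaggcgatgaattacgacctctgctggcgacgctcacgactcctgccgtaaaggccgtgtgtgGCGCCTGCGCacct
TIMM17A (chr1:201955353-201955502, plus strand): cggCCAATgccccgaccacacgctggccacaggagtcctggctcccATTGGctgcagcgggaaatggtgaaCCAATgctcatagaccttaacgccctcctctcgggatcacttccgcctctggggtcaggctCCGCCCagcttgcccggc
HSPA9 (chr5:138575402-138575551, minus strand): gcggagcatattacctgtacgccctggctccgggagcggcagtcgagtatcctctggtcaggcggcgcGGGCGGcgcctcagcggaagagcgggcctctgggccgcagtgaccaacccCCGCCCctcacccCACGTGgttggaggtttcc
PMPCA (chr9:136410615-136410657, plus strand): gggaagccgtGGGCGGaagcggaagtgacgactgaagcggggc
TOMM20 (chr1:235128838-235128987, minus strand): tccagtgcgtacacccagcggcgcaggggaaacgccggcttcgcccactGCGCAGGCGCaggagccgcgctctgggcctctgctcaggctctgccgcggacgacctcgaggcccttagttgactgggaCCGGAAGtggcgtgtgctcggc
TOMM70 (chr3:100401090-100401239, minus strand): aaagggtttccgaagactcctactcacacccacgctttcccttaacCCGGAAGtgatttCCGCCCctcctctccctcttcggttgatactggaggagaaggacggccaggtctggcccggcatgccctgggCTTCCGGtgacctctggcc
TIMM50 (chr19:39480688-39480837, plus strand): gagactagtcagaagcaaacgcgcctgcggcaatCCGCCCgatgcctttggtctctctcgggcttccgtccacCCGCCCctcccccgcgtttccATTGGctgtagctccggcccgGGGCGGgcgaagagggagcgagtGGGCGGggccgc

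The libraries differed in depth, which limits every comparison of the lists. The control list held 39876 regions (median width 366 bp) and the knockdown list 28187 (573 bp). Summit pileups (fragments at the peak's highest point, recovered from the deposited fold and p-value) had medians of 6 and 22 fragments, and the lowest backgrounds were 0.278 and 2.48 fragments, a ratio of 8.93. The cell type was checked on peaks alone: of 8 epithelial markers, 8 had a knockdown region and 6 a control region. Of all genes 47.0% had a knockdown region. Of 8 markers of other cell types, COL1A1, COL3A1, ALB and MYH7 had none in either list. PTPRC, CD3E and SYP had 2, 4 and 1 knockdown regions, with highest folds of 4.07, 4.34 and 4.09. The median fold of the knockdown list was 4.21. Control regions lay at PTPRC (3.12-fold) and PECAM1 (4.59-fold), so at 2 of the 8 markers, against 28.5% of all genes.

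Import and chaperone genes carried H3K14ac regions mainly in the NIT2 knockdown list. Of the 35 genes, 20 (57.1%, 95% interval 39.4 to 73.7) had at least 1 knockdown region in their span or within 1 kb of it, where 47.0% of all protein-coding genes did. The control list had a region at 6 of them (17.1%, 6.56 to 33.6), against 28.5% of all genes. By class, 16 of 35 (45.7%) had regions in the knockdown list alone, against 27.4% of all genes, and 4 (11.4%) in both lists, against 19.6%. A further 2 (5.71%) had a region in the control list alone, against 8.90%, and 13 (37.1%) in neither, against 44.1%. The intervals of the shares over the members held the all-gene value except for the knockdown list alone (28.8 to 63.4). The intervals treat genes as independent, although HSPD1 and HSPE1, both counted there, share regions. They were not adjusted for the number of classes, so this exception is a description and not a test. The members were shorter than genes at large, with a median span of 12436 bp against 24115 bp, and a longer span meets more regions; the part of length in these shares was not tested.

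**Figure D1:**
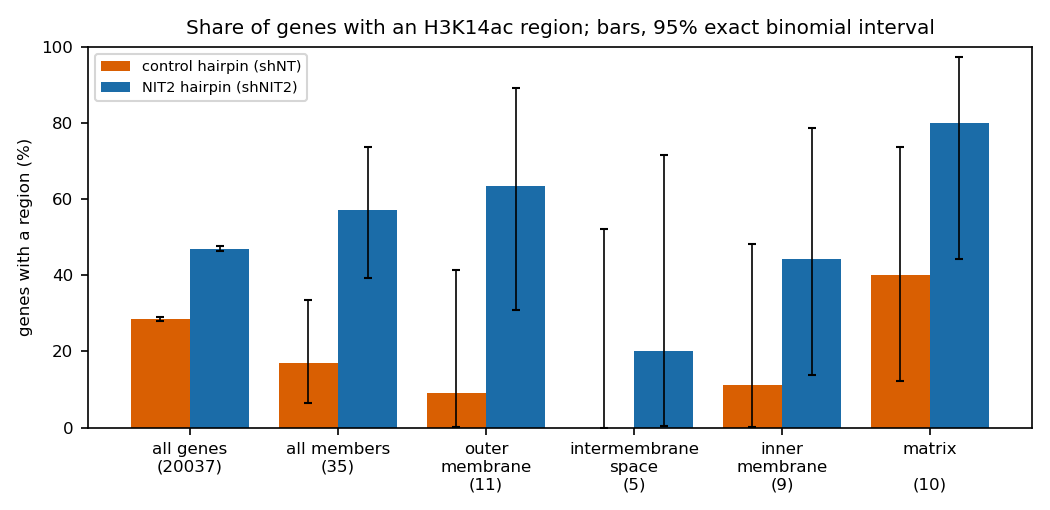
Percentage of genes with an H3K14ac region (y axis) in the control (orange) and NIT2 knockdown (blue) lists, for all protein-coding genes, all members and each compartment, with the number of genes in brackets and 95% exact binomial intervals as bars. In the knockdown list the matrix genes stand at 80.0% and the intermembrane space genes at 20.0%, with intervals that overlap.

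The compartments are given by their counts, and of all protein-coding genes 47.0% had a knockdown region and 28.5% a control region. In the knockdown list 8 of 10 matrix genes had a region, 7 of 11 outer membrane genes, 4 of 9 inner membrane genes and 1 of 5 genes of the intermembrane space. In the control list these counts were 4, 1, 1 and 0, so the 4 genes with regions in both lists were matrix genes. The matrix regions also reached higher values within the knockdown list. Of 14 matrix regions 12 had a −log10 q of at least 5, against 4 of 9 at outer membrane genes, 1 of 5 at inner membrane genes, the 1 region of the intermembrane space below it, and 60.5% of all knockdown regions. Median folds in the same order were 4.67, 4.02, 3.31 and 2.62, and the list's median was 4.21. The exact intervals were wide (44.4 to 97.5 for the matrix share, 13.7 to 78.8 for the inner membrane) and overlapped, each compartment's interval in the knockdown list held the all-gene 47.0%, and the difference between compartments was not tested. Median spans went from 17668 bp for matrix genes to 12436 bp, 12009 bp and 2291 bp for the outer membrane, inner membrane and intermembrane space. Counting only the window of 1 kb on each side of the gene start, matrix genes had 6 of the 8 with a listed start, outer membrane genes 6 of 10, inner membrane genes 3 of 9 and intermembrane space genes 1 of 4, against 37.4% of all genes with a listed start.

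**Figure D2:**
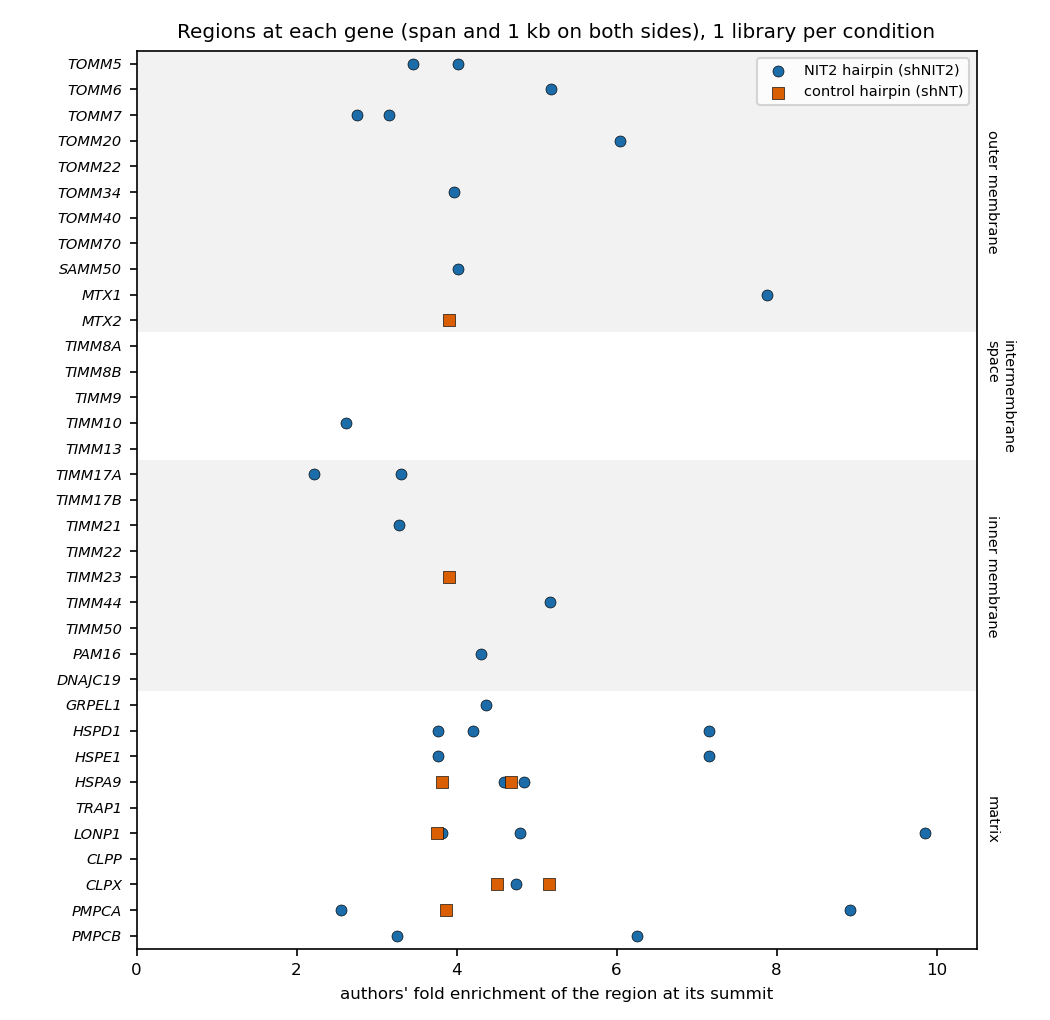
The authors' fold enrichment (x axis) of every region at each of the 35 genes, in the NIT2 knockdown (blue circles) and control (orange squares) lists, with genes grouped by compartment. The highest knockdown values are 9.85 at LONP1 and 8.92 at PMPCA, and the control values lie between 3.76 and 5.15; folds are not comparable between lists of unequal depth.

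Among the TOM genes, the pore and its main receptors were split. TOMM20, a receptor for targeting signals, had a knockdown region on chromosome 1 from 235128099 to 235128757, at 6.04-fold on 20 fragments. It lay 80 to 738 bp inside the gene and overlapped no control region. TOMM22, the central receptor, TOMM40, the pore itself, and TOMM70, the receptor for carrier proteins, had no region in either list. Their nearest knockdown regions lay 8830 bp, 43719 bp and 27945 bp from the gene. TOMM70 is the next gene to NIT2 on chromosome 3, with 1795 bp between them, and its nearest knockdown region was the one at the start of NIT2 (100334834 to 100335486, 6.23-fold).

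The small TOM subunits TOMM5, TOMM6 and TOMM7, which stabilise the pore, all had a knockdown region, as did 47.0% of all genes. With so few genes, no trait of the small subunits is read from this. TOMM6 had 1 at 5.18-fold on 28 fragments, 48 to 470 bp inside the gene. TOMM7 had a pair, at 2.75-fold on 27 fragments inside the gene and at 3.16-fold on 21 fragments upstream. TOMM5 also had a pair, at 4.02-fold and 3.45-fold on 13 and 11 fragments, the latter the lowest pileup among the members' knockdown regions. TOMM34, which is not a small TOM subunit, had 1 region at 3.97-fold on 28 fragments. None of these 4 genes had a control region, where 28.5% of all genes did. The TOMM7 fold of 2.75 stood at only the 6.45th percentile of its list, over a local background of 9.19 fragments.

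In the SAM complex, SAMM50, the barrel-inserting core, had a knockdown region at 4.02-fold that ended 190 bp upstream of its start. Metaxins accompany this core. MTX1 had the widest region among the outer membrane genes, 1218 bp at 7.88-fold on 32 fragments (chromosome 1, 155208769 to 155209986). That region also covered the start of THBS3, a thrombospondin gene that runs the other way, so it cannot be given to one gene. MTX2 had no knockdown region within 1 kb, the nearest being 268538 bp away, and a control region of 4 fragments (3.91-fold) with its summit 8674 bp inside the gene.

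Of the 5 small TIM chaperone genes 1 had a knockdown region (interval of the share 0.505 to 71.6, which holds the 47.0% of all genes). TIMM10, a subunit of the main carrier chaperone, had 1 knockdown region at 2.62-fold on 19 fragments, with its summit 447 bp inside the gene. Its partner TIMM9 had none in either list, nor did TIMM8A, TIMM8B and TIMM13. Their nearest knockdown regions lay between 28345 bp (TIMM13) and 58710 bp (TIMM8B) from the genes. The TIMM10 fold stood at the 3.93rd percentile of the knockdown list. TIMM10B, a related small TIM gene outside the members, had a knockdown region at 3.16-fold.

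Of the 9 inner membrane genes, all but TIMM22 belong to the TIM23 complex or its import motor. Of these 8, 4 had a knockdown region, against 47.0% of all genes. TIMM44, which tethers the motor to the channel, had the strongest, 5.17-fold on 17 fragments, 56 to 678 bp inside the gene. PAM16, a regulator of the motor's Hsp70, had 1 at 4.31-fold on 14 fragments, which the readthrough gene CORO7-PAM16 also spans. TIMM17A, a channel subunit, had a pair at 3.31-fold and 2.22-fold on 15 and 21 fragments. TIMM21, a further subunit of the complex, had 1 region at 3.28-fold whose near edge was 1226 bp from the start. TIMM17B, the other TIM17 gene, had none, and neither did TIMM50 (the channel's receptor), DNAJC19 (the motor's J protein) or TIMM22 (the carrier channel). TIMM23 had only a control region, 660 bp wide on 4 fragments (3.91-fold), with its summit 8442 bp inside the gene. A near-identical copy, TIMM23B, lies on the same chromosome, and the counting of multiply mapped reads is unknown, so this value is uncertain.

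Of 5 matrix chaperone genes, 4 had a knockdown region, where 47.0% of all genes did. HSPD1 and HSPE1, both among the 4, share regions, and no trait of the chaperones is read from this count. HSPD1 and HSPE1 encode the Hsp60 and Hsp10 chaperonin pair and start on opposite strands of chromosome 2 with 104 bases between them. A region at 7.16-fold on 31 fragments (197499161 to 197499790) lay inside HSPD1, and one at 3.77-fold on 22 fragments (197500584 to 197500934) lay inside HSPE1. The stretch between the starts, printed above, was in neither. HSPD1 had another region at 4.20-fold deeper in the gene, and the control region nearest to HSPE1 lay 132193 bp away. GRPEL1, the nucleotide exchange factor of the matrix Hsp70, had 1 at 4.37-fold on 19 fragments, and the nearest control region lay 1101 bp outside its span, just past the 1 kb limit. TRAP1, the mitochondrial Hsp90, had none in either list, and lay 45482 bp from the closest knockdown region.

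HSPA9, the matrix Hsp70 (mortalin), was the only member whose regions overlapped between the lists, where 8.43% of all genes had such an overlap. Upstream of its start the knockdown list had a region at 4.59-fold on 27 fragments (chromosome 5, 138575968 to 138576373). The control list had one at 4.68-fold on 6 fragments (138576086 to 138576471), and they shared 288 bp; each fold belongs to its own list and the values are not compared. Their summits lay 729 and 961 bp upstream. Inside the gene the knockdown region was 1200 bp wide, at 4.84-fold on 44 fragments, and it overlapped no control region. The second control region, on 4 fragments, had its summit 4003 bp into the gene.

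Proteases and processing peptidases gave the highest folds, and these regions lay beside other genes. LONP1, the main matrix protease, had 3 knockdown regions, the strongest at 9.85-fold on 34 fragments. That one (chromosome 19, 5690362 to 5691480) lay outside LONP1, within 1 kb of the start of RPL36, a cytosolic ribosomal protein gene. The other LONP1 regions, at 3.82-fold and 4.79-fold, had near edges 1033 and 1839 bp inside the gene. PMPCA, the alpha subunit of the processing peptidase, had a region at 8.92-fold on 58 fragments that ended 182 bp upstream, beside the start of ENTR1, and one at 2.55-fold on 15 fragments inside the gene. PMPCB, the beta subunit, had one at 3.25-fold on 23 fragments at its own start and one at 6.26-fold on 50 fragments at the start of DNAJC2, a ribosome-bound cochaperone gene within the PMPCB span. CLPX, the unfoldase of the ClpXP protease, had a region at 4.74-fold on 32 fragments, 33 to 694 bp inside the gene. Its partner CLPP had none in either list, and lay 23300 bp from the closest knockdown region.

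The strongest regions at the members lay near the starts of other genes. All 5 members' regions with the highest folds had another gene's start within 1 kb: those of LONP1, PMPCA, MTX1, HSPD1 with HSPE1, and PMPCB. Of all 29 knockdown regions 7 did. Without such regions, an alternative chosen after seeing the data, 17 members had a knockdown region, 6 of them matrix and 6 outer membrane genes, against 40.9% of all genes. The share of all knockdown regions, or of the strongest, with a neighbouring start was not computed, so no trait of the members is read from these counts. Only listed starts were searched, and for HSPD1 and HSPE1 the neighbouring starts include that of the other member.

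At these members, knockdown regions near a start lay on one or both sides of it and not over it. Of 31 members with a listed start, 16 (51.6%) had a knockdown region within 1 kb of it, against 37.4% of all genes with a listed start. In none of the 16 did a region cover the start itself, where 15.8% of all genes with a region so close had theirs covered. This difference was not tested, and HSPD1 and HSPE1, both among the 16, share regions. Most had the nearest summit inside the gene, 13 of 16, between 173 bp (PMPCB) and 514 bp (CLPX), against 77.1% of all such genes. The median over the 16 was 292 bp (quartiles 187 and 309), and over all such genes 309 bp (129 and 453).

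A start between a pair of regions, one on each side and neither covering it, was found at 6 of the 31 genes (19.4%), against 7.40% of all genes. They were TOMM7, TIMM17A, HSPA9, PMPCA, HSPD1 and HSPE1, and since the last pair share their regions, these are 5 places in the genome. At TOMM7 the regions reached from 559 to 252 bp upstream and from 113 to 405 bp inside the gene. TIMM17A had the widest gap, from 371 bp upstream to 466 bp inside. PMPCA had the gap from 182 bp upstream to 97 bp inside, and HSPA9 from 567 bp upstream to 60 bp inside. SAMM50 alone had a region upstream and none downstream.

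**Figure D3:**
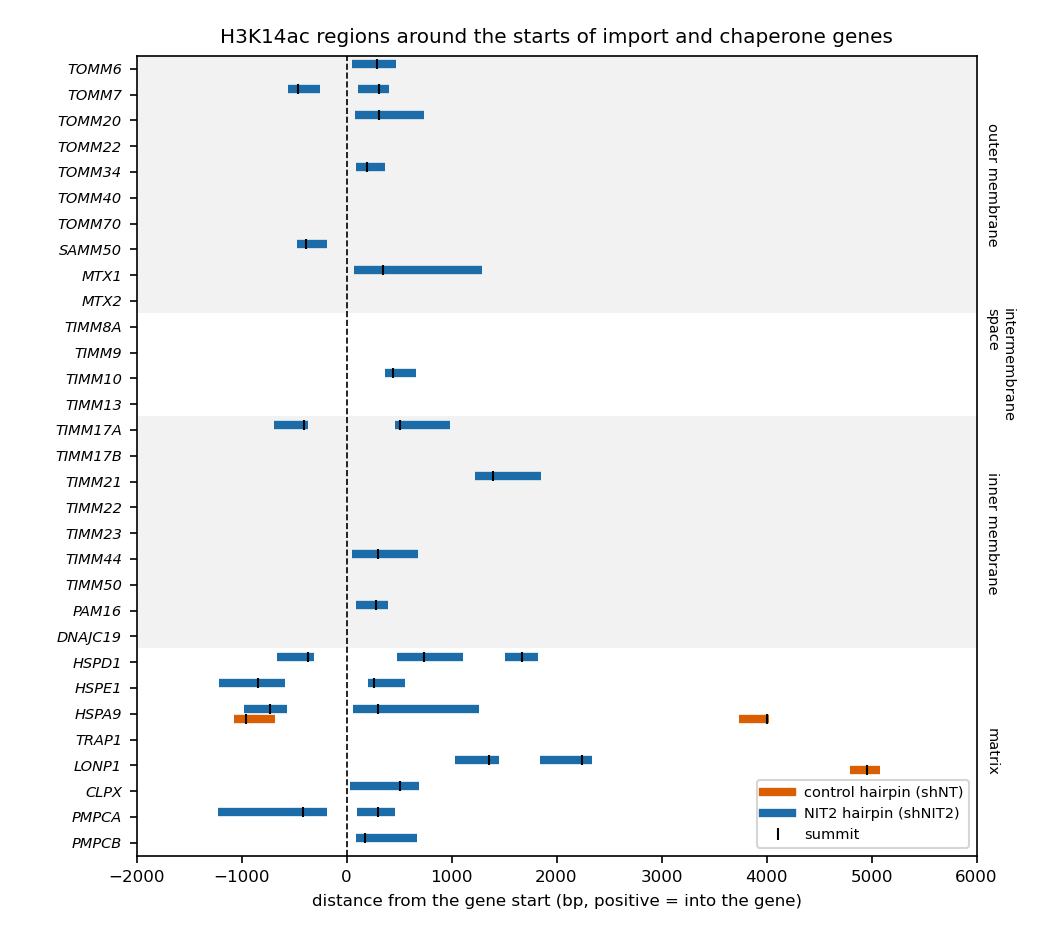
Regions of the control (orange) and NIT2 knockdown (blue) lists around the starts of the 31 genes with a listed start, by distance in bp (x axis, positive into the gene); black ticks mark summits, and regions past the right edge of the axis are not drawn. No blue region touches the dashed start line, and 6 genes have blue regions on both sides of it.

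**Figure D4:**
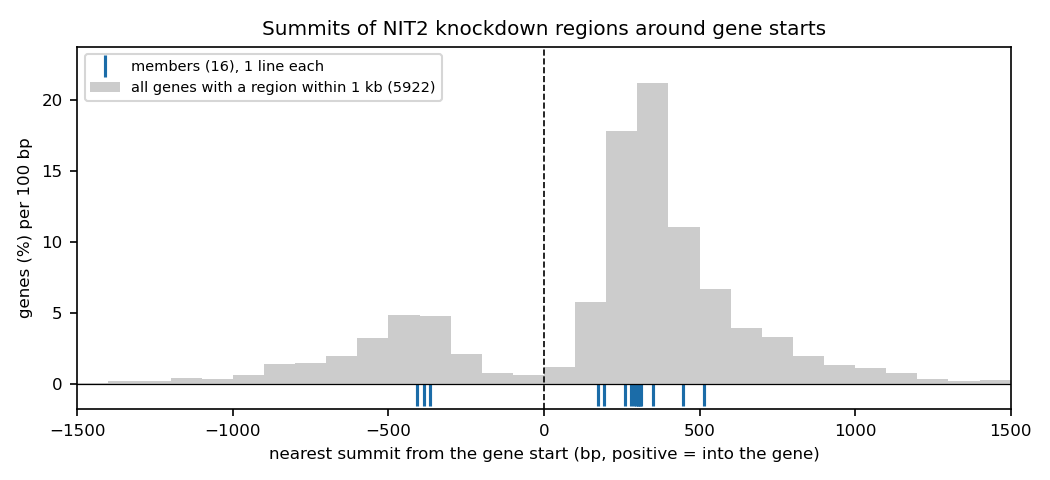
Distance in bp from the gene start to the nearest knockdown summit (x axis) for all genes with a knockdown region within 1 kb (grey, percentage per 100 bp) and for the 16 members (blue lines). The members' lines lie in the same 2 ranges as the grey bars, 13 inside the gene and 3 upstream.

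Most control regions at the members lay away from gene starts. The control list had 8 regions at the members, on 4 to 7 fragments, and 7 of them had their summit at least 4003 bp into the gene. The share of all control regions so far inside genes was not computed, so no trait of the members is read from this position. CLPX held 2, at 5.15-fold on 7 fragments and at 4.51-fold on 6, with summits 10931 and 14610 bp from the start. PMPCA had 1 at 3.87-fold and LONP1 1 at 3.76-fold, each on 4 fragments and 9171 and 4956 bp inside. The region upstream of HSPA9 was the only one within 1 kb of a start (1 of 31 members, 3.23%), against 5.48% of all genes with a listed start. Of the 8, 0 reached a −log10 q of 5, which 35.2% of all control regions did.

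The knockdown pileups can be set on the scale of the shallower control library, as a description of depth. Divided by 8.93, the ratio of the background floors, the summit pileups of the 29 knockdown regions came to between 1.23 and 6.49 fragments, with a median of 2.35. For 18 of them this was below 3, the lowest pileup of any control region, and for 11 it was 3 or more. The latter included PMPCA (6.49), the PMPCB region at DNAJC2 (5.60), HSPA9 (4.93 and 3.02), LONP1 at RPL36 (3.81), CLPX and MTX1 (both 3.58) and HSPD1 (3.47). Of these 11 regions, a control region overlapped only that of HSPA9 at 3.02. The part of depth in the missing control regions was not tested, and total reads are unknown. With 1 library per condition, none of these differences has a replicate check.

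The members' promoters were rich in G and C, whether or not a region lay nearby. Over the window from 250 bases before to 50 after the start, the median G and C content was 65.3% for the 31 members and 62.7% for all 15842 promoters. It was 66.3% for the 16 members with a knockdown region within 1 kb and 63.7% for the other 15. The NRF1 motif, bound by a regulator of nuclear genes for mitochondria, was in 10 of 31 windows (32.3%), against 11.9% of all. It stood in 7 of the 16 and in 3 of the 15, and in the stretches printed above it is in those of HSPE1, TOMM7 and TOMM20. The ETS motif, which GABP can bind, was also in 10 of 31 (32.3%), against 14.2%, and was split 5 and 5.

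Of the other motifs, the E box was also in a larger share of members than of all promoters, and the rest were nearer to genes at large or were rare. GGGCGG was in 22 of 31 windows (71.0%), against 58.3%, CCAAT in 11 (35.5%), against 36.4%, and AANATGGC in 3 (9.68%), against 7.92%. The E box CACGTG was in 6 (19.4%), against 8.82%, with 5 of them among the 16 with a nearby region, including HSPD1, HSPE1 and HSPA9. The CRE was in 1 window, that of TRAP1, against 2.56%. TATAAA was in none, against 9.75%, and GAANNTTC, part of a heat shock element, in none, against 5.56%, the chaperone genes included. A match is a run of letters and was not tested as a binding site. Some matches overlap: HSPD1 and HSPE1 share the stretch between them, so their windows hold the same letters on opposite strands.

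Other genes of import and quality control, listed beside the members, had knockdown regions in 23 of 32 cases (71.9%) and control regions in 11 (34.4%). Over all protein-coding genes these shares were 47.0% and 28.5%. The highest folds were at PHB2, a prohibitin scaffold of the inner membrane (16.4-fold on 88 fragments), MIPEP, an intermediate peptidase of the matrix (12.1-fold), and DNAJC15, a J protein of the TIM23 motor (12.0-fold). By compartment the knockdown counts were 3 of 6 in the outer membrane, 3 of 5 in the intermembrane space, 12 of 14 in the inner membrane and 5 of 7 in the matrix. The inner membrane, with 4 of 9 among the members, thus had the highest share in this second list. Cytosolic chaperones, which hold proteins before import or serve other proteins, had knockdown regions at 18 of 20 genes (90.0%). They had control regions at 6 (30.0%), near the 28.5% of all genes. Their highest folds were at HSPA8 (20.1-fold on 160 fragments), HSP90AA1 (10.2-fold) and DNAJA2 (7.54-fold). No test was run between these lists.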

How the data were processed

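H3K14ac ChIP-seq peak lists of 2 libraries were used, 1 for each hairpin. The input libraries were not analysed here. Single-end sequencing is stated per the labels' protocols. The tools listed per the submitters' processing notes are MACS2 2.1.1, Bowtie2 2.2.6, FastQC, ChIPseeker, Trimmomatic 0.35 and cutadapt 1.9.1, with the build hg38 and no settings. Whether the input served as the control in peak calling, and how duplicate or multiply mapped reads were handled, is unknown from those sources. Each deposited list holds, for every region, a score, the fold enrichment at the summit (a ratio with a pseudocount of 1), the −log10 p and the −log10 q. These values are the authors' own and rank regions within a list. Where folds of both lists are printed or plotted together, or one threshold is applied to both, no difference in acetylation is read from them. The pileups and backgrounds solved from them were set side by side for depth. The lowest deposited −log10 q was 1.30 in both lists.

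A gene had a region when one touched its RefSeq span (GRCh38.p14) extended by 1 kb on both sides, by at least 1 bp. Summit pileup and background were solved from the deposited fold and −log10 p as a Poisson upper tail, to within 0.1%. This failed for 15 regions of shNT and 11 of shNIT2. The solution and the overlap were tested on simulated data. Gene starts and promoter sequences came from the RefSeq promoter table, which matched 31 of the 35 genes. Where several starts were listed, the one farthest 5′ was used. Intervals are exact (Clopper-Pearson) at 95% and cover counting error only. No test across samples was possible, since each condition has 1 library.

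All 35 genes are named. Of the other lists, the counts and the 3 genes with the highest fold in the shNIT2 list are named. A neighbouring gene is named only where the same region lies within 1 kb of it. The genes, lists and motifs were chosen with earlier results of these data known. Alternatives changed the gene window, the peak threshold and the overlap. Another one, without regions near the start of another gene, was chosen after seeing the data. Python 3.11.15, scipy 1.17.1, numpy 2.4.6, pandas 2.3.3 and matplotlib 3.10.9 were used.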

Additional observations from a re-analysis of the deposited data

How the results depend on the processing

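No paired analysis was possible because each condition has 1 H3K14ac library, and no replicate could be left out for the same reason. Counts of members were recomputed under other windows and thresholds; 69 values stayed within 1.5 times the main count and 64 did not. Main counts were 20 members in the knockdown list (7 outer membrane, 1 intermembrane space, 4 inner membrane, 8 matrix) and 6 in the control list (1, 0, 1 and 4), with 16 in the knockdown list alone, 4 in both, 2 in the control list alone and 1 with overlapping regions. Windows without extension or of 3 kb, and leaving out regions near other starts, moved no count past 1.5 times. With 1 kb around both gene ends, or around the gene start alone, the control list had 1 member (outer membrane 0, inner membrane 0, matrix 1). Either setting left 1 in both lists and 0 in the control list alone. Over all genes the control share went from 28.5% to 6.41% and 4.33%. The 4.33% is a share of all genes, those without a listed start included. Of genes with a listed start it was 5.48%. With a pileup of at least 5 fragments the control list had 2 members, both also in the knockdown list, 2 in the matrix and 0 in either membrane, with 0 in the control list alone (18.7% of all genes in the control list). At −log10 q of at least 5 the knockdown list had 13 members (outer membrane 4, intermembrane space 0, inner membrane 1), and at 10 it had 9, all in that list alone (outer membrane 2, inner membrane 0, intermembrane space 0), beside 36.0% and 22.7% of all genes. The control list, with 5.93% and 1.03% of all genes, had 0 members at both thresholds, hence 0 in both lists, 0 alone, 0 in each compartment and, at 5, 0 overlapping. At a fold of at least 5 the knockdown list had 9, all alone (outer membrane 3, intermembrane space 0, inner membrane 1, matrix 5), and the control list 1, alone (matrix 1, either membrane 0), with 0 in both; the all-gene shares were 24.9% and 10.4%. Among the 10000 regions with the highest −log10 p of each list, 10 members were in the knockdown list, all alone (outer membrane 3, intermembrane space 0, inner membrane 0), and 0 in the control list, in both or in the control list alone (24.3% and 3.08% of all genes). Requiring summits within 200 bp left 0 members with shared regions; a 50% reciprocal overlap kept 1. The cause was not tested, beyond fewer regions at stricter thresholds. Matrix genes had at least as many members in the knockdown list as any other compartment under each of these settings. At a fold of at least 5, however, the regions of all 5 matrix members had another gene's start within 1 kb. Leaving out such regions was not combined with the stricter thresholds, so the matrix counts there are not separate from neighbouring genes. Since the libraries differ in depth, a threshold does not select equally in them.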
